A study of Homo sapiens with 13 samples.

Results

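BCL2, BCL2L1, BCL2L2, MCL1, BAX, BAK1, BCL2L11, BBC3, PMAIP1 and BID, the core genes of the BCL2 family of apoptosis regulators, were examined for accessible chromatin in 2 small cell lung cancer (SCLC) lines. They were chosen by name, as a known group of apoptosis genes, and are 10 of the 20007 protein-coding genes in GENCODE release 44. All 10 were found in the annotation. Each gene was examined at its transcription start site (TSS, here the 5′ end of the gene record, with 1 kb to either side), over its gene body, and over a window made of the gene body and 50 kb to either side. The human genome build was hg38 throughout.

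The BCL2 family sets the threshold for the mitochondrial pathway of apoptosis. The effectors BAX and BAK1 open pores in the outer mitochondrial membrane, which releases cytochrome c and activates caspases. The anti-apoptotic members hold the effectors in check, and the BH3-only members, induced or activated by stress, bind and neutralize the anti-apoptotic proteins or engage the effectors directly. SCLC cells often carry high BCL2 and are studied with drugs that mimic BH3-only proteins.

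ATAC-seq, a method that finds open chromatin by where the Tn5 transposase can insert adapters, had been carried out on H82 and H146, both established human SCLC lines that the labels give as wild type (WT). Within the neuroendocrine forms of SCLC, H82 is assigned to the subtype with NEUROD1 and H146 to a different one. H82 was represented by 3 untreated libraries and 3 libraries from cells given FHD-286, which inhibits SMARCA4 and SMARCA2, the ATPases of the SWI/SNF chromatin remodeller, over 14 days at a dose of 100 nM renewed every 48 h. H146 was represented by 4 untreated and 3 treated libraries under the same regimen. Nothing in the labels states whether libraries of a group came from separate cultures.

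The data held 1 list of accessible regions per line, pooled over its untreated and treated libraries, with no height, read count or library of origin. Every value below is therefore a single value per line with no replicates, no test between the lines could be made, and the effect of FHD-286 could not be measured. H82 had 206927 regions that covered 5.41% of the genome, and H146 had 174093 regions that covered 4.49%. Depth per library was unknown. The line, its number of libraries, their depth and their sequencing batches therefore cannot be told apart in any difference given here. NEUROD1, used as a marker, was open near the TSS (a region within 1 kb) in H82 only. The TSSs of PTPRC and CD3E (leukocytes), DCN (fibroblasts) and CDH5 (endothelium) had no region in either line, whereas COL1A1, PECAM1 and POU2F3 had a region in both, so a region at a TSS by itself did not identify a cell type.

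The start sites of the family were accessible in both lines with a single exception. For 9 of 10 genes both lines had a region no more than 1 kb from the TSS, against 75.4% of all protein-coding genes. BCL2L2 had such a region in H82 only, a state found in 5.09% of all genes. At the start of its MANE Select transcript, the reference isoform, which lies 8043 bp into the gene, BCL2L2 also had a region in H146, of 1386 bp, and counted in this way all 10 genes were accessible in both lines, as were 77.8% of all genes. Reading the regions against individual transcripts, every annotated coding transcript start lay inside a region of both lines for BCL2 (5 starts), BCL2L1 (10), MCL1 (4), BAX (2), BAK1 (2), PMAIP1 (2) and BID (6).

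**Figure D1:**
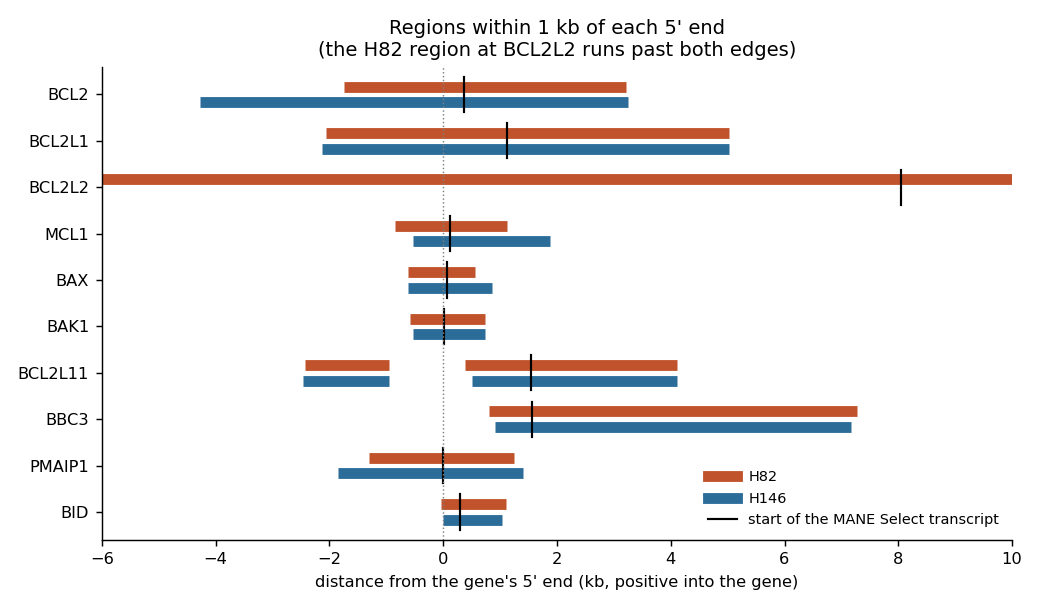
Extent of the accessible regions within 1 kb of the 5′ end of each gene, in kb from that end, for H82 (upper bars) and H146 (lower bars), with a black tick at the start of the MANE Select transcript. For 9 of the 10 genes the bars of the lines overlap, and BCL2L2 has an H82 bar only, which runs beyond the plot on both sides.

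Across the windows, H82 had 198 regions and H146 had 228. The excess of H146 was not common to all genes. H146 had more regions at BCL2 (60 against 44) and PMAIP1 (30 against 18), both on chromosome 18, and at BCL2L1 (45 against 30), BCL2L2 and BCL2L11. H82 had more at MCL1, BAK1, BBC3 and BID. A region is called shared here where at least 1 bp of it lies in a region of the other line, and H82-only or H146-only if none does. Of the H82 regions, 154 were shared (77.8%, exact 95% interval 71.3 to 83.4%, counting error only), against 59.3% of the whole H82 atlas. The interval treats regions of the same gene as independent, and the share varied between genes. At BCL2 all 44 H82 regions were shared and at PMAIP1 17 of 18, while at BID 3 of 14 were. BCL2 and PMAIP1 lie on chromosome 18, where 88.8% of all H82 regions overlapped H146. Of the H146 regions, 158 were shared (69.3%, exact 95% interval 62.9 to 75.2%), against 70.5% of the whole H146 atlas. Some shared regions had the same first and last base in both lines, such as chr18:63258658-63261343 in intron 2 of BCL2. The sources used here do not say whether the lists of the lines were made independently, and this was not tested. Shared counts and equal edges are therefore given only as the lists hold them. The line-only regions were narrow, with a median of 281 bp for the 44 H82-only and 324 bp for the 70 H146-only regions, while shared regions were wider, with medians of 825.5 bp (H82) and 843.5 bp (H146). By the rule of 1 bp a wider region is more easily shared, so the definition itself favours this contrast. The narrowest width the lists hold is 200 bp, and 7 of the H82-only and 12 of the H146-only regions had that width. The windows of the family were well covered: the median covered share of a window, meaning the percentage of its bases inside regions, was 16.3% in H82 and 17.7% in H146, against medians of 7.53% and 6.16% over all genes. The DNA around these windows, out to 1 Mb, was also well covered. Its median share was 10.8% in H82 and 10.3% in H146, against 7.02% and 5.59% over all genes.

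**Figure D2:**
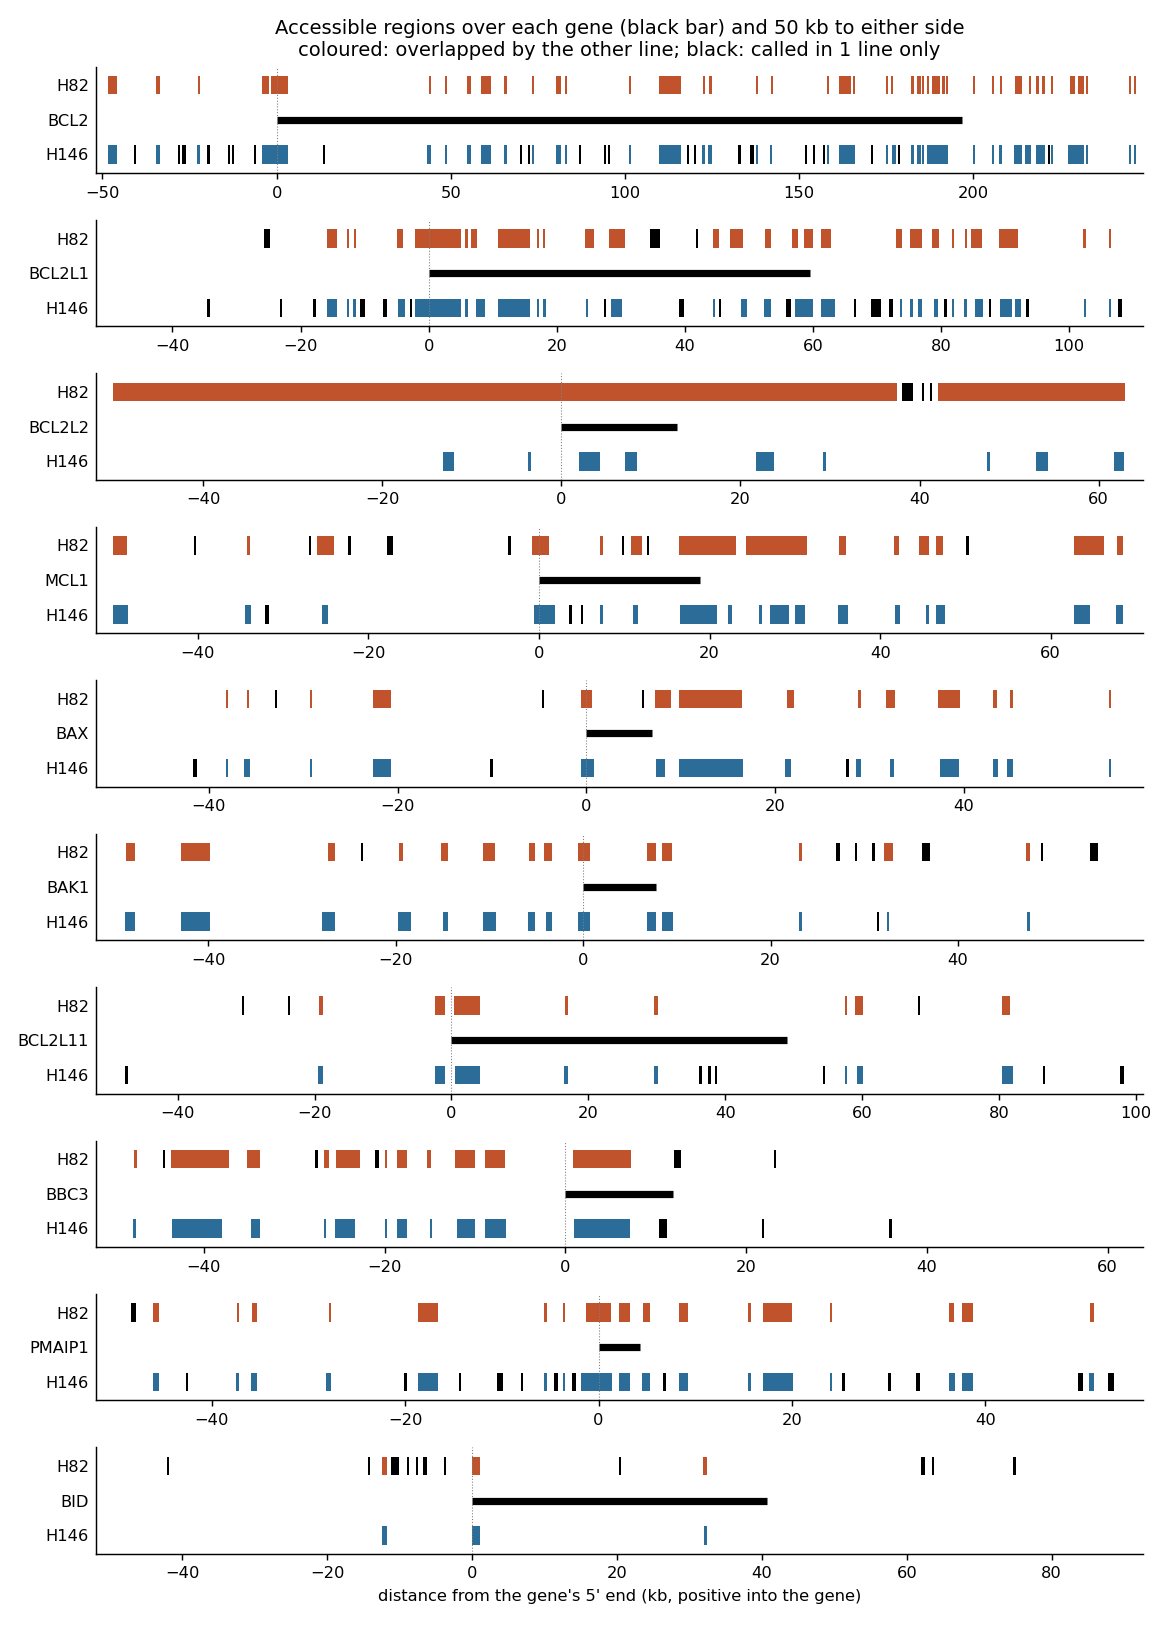
Position of every region in the window of each gene, in kb from the 5′ end, with H82 above and H146 below the gene (black bar). Coloured blocks are shared and black blocks were called in 1 line only, and narrow regions are drawn at a minimum width so that they can be seen. All H146-only blocks of BCL2 lie away from its start, and the H82 track of BCL2L2 is nearly continuous.

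The covered share of the window differed by at least 1.5 times between the lines for 2 of 10 genes, BCL2L2 and BID, both higher in H82, where 29.3% of all genes passed that limit in the same direction. None of the 10 passed it in the direction of H146, as 5.23% of all genes did. Just under the limit were MCL1, 1.45 times higher in H82, and BCL2, 1.45 times and PMAIP1, 1.38 times higher in H146. By the number of regions, BID was past 1.5 times in H82, with 30.6% of all genes, and BCL2L1, BCL2L2 and PMAIP1 were at or past it in H146, with 6.26% of all genes. For BCL2L2 the number and the covered share pointed in opposite directions, since a single H82 region spanned most of the window. H82 had the higher covered share for 5 genes (BCL2L2, MCL1, BAK1, BBC3 and BID) and H146 for the other 5. Over all genes, 63.7% had the higher share in H82.

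**Figure D3:**
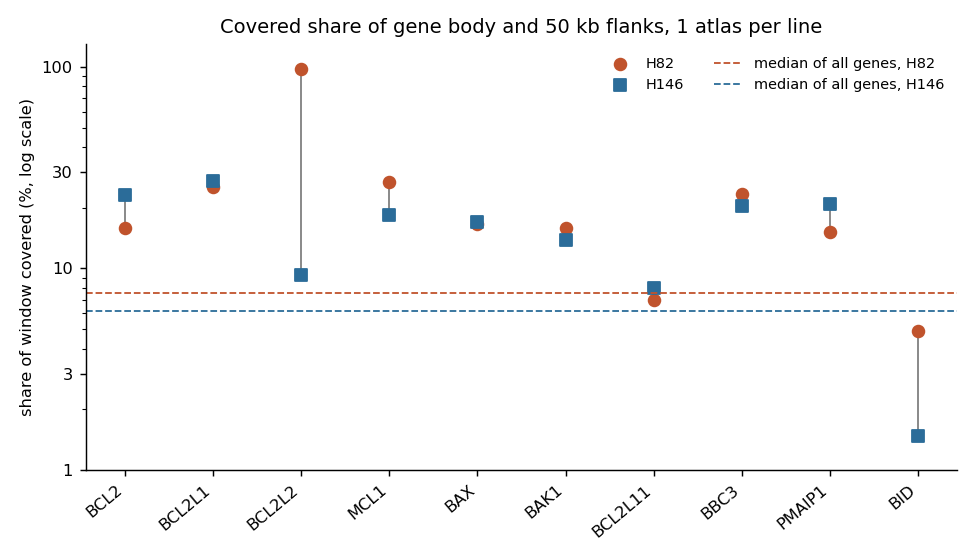
Covered share of each window on a log scale, with circles for H82, squares for H146 and dashed lines at the medians over all 20007 genes. The pairs lie close together except for BCL2L2 (97.4% and 9.30%) and BID (4.89% and 1.48%), and in both lines BID is the only gene below the median of all genes apart from BCL2L11 in H82.

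Among the anti-apoptotic genes, BCL2, which encodes the founding member and the target of venetoclax, had more accessible regions in H146. Its gene body (chr18:63123346-63320128, minus strand) and flanks held 44 regions in H82 and 60 in H146, and the regions covered 15.9% and 23.1% of the window. All 44 H82 regions were overlapped by an H146 region, and 23 H146 regions had no H82 counterpart. BCL2 was 1 of 9 family members with at least 10 H82 regions, and the only member of these without an H82-only region, which held for 2.44% of all genes with that many. That share was not computed for chromosome 18 alone, where 88.8% of H82 regions overlapped H146, against 59.3% genome-wide. Of the 23 H146-only regions, 15 lay in intron 2, 7 upstream and 1 downstream, and their widths ran from 200 to 1158 bp with a median of 301 bp. The region over the TSS was 4968 bp wide in H82 and 7519 bp in H146. Counted in bp from the TSS, with negative values upstream, the H82 region ran from -1746 to 3221 and the H146 region from -4276 to 3242, so that they ended alike inside the gene. A second H82 region, of 1983 bp, ended at the same upstream base as the H146 region, so the lines differed there by a gap in H82 rather than in reach. Deep in intron 2, the lines shared a wide region centred 113 kb from the TSS, 6198 bp in H82 and 6427 bp in H146, and another whose edge toward the TSS was at the same base in both, 3532 bp and 4676 bp wide. At the 3′ end of BCL2, H146 had a single region of 5944 bp that reached from exon 3 into intron 2, and it overlapped 4 separate H82 regions of 200, 752, 2059 and 353 bp.

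The bases directly upstream of the BCL2 gene record lay wholly inside the regions of both lines, and are shown because they mark the start of BCL2 that was open in both. In the sequence, capitals mark the GC box GGGCGG or its reverse complement, the word bound by Sp1-type factors. The stretch has 3 such words, and at least 1 was present in the same 250 bases of 49.0% of 20006 genes and of 5 of the 10 family members (BCL2, MCL1, BAK1, BCL2L11 and PMAIP1). The count depends on the start used: before the MANE Select starts, the word was present for 8 of 10 members and 59.0% of all genes, and BCL2 had 0.
BCL2, chr18:63320129-63320378, minus strand: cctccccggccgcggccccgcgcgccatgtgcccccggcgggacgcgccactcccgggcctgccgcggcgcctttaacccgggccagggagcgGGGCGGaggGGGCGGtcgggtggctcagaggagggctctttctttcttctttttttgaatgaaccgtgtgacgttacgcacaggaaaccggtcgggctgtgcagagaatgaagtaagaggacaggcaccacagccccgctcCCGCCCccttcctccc
The widest H146-only region inside BCL2, 958 bp in intron 2 at chr18:63183186-63184143, is shown by its central 300 bases, as an example of the sites that H82 lacked. Capitals mark the E-boxes CAGATG and CAGCTG, words read by proneural factors such as NEUROD1, and the FOXA word TGTTTAC, on either strand. The stretch holds 2 matches of CAGATG, 1 of CAGCTG and 1 of TGTTTAC.
BCL2 intron 2, chr18:63183515-63183814, minus strand: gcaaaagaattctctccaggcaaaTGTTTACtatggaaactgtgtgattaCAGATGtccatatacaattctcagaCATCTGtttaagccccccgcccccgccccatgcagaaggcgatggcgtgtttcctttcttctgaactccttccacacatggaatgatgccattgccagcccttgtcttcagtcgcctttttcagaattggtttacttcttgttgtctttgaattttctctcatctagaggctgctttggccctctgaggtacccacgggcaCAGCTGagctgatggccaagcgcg

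BCL2L1, which encodes BCL-XL, had nearly the same covered share in both lines and more regions in H146. The window (gene at chr20:31664452-31723989, minus strand) held 30 regions in H82 and 45 in H146, a 1.5-fold difference in number, while the covered share was 25.3% and 27.3%. The extra H146 regions were small: 17 were H146-only, with a median width of 431 bp, against 3 H82-only regions. The TSS regions had almost the same size, 7086 bp and 7155 bp, and ended at the same base inside the gene. A second region, 4976 bp in H82 and 5023 bp in H146, covered part of intron 2 centred 13.3 kb from the TSS, and again had 1 edge in common. Over the gene body alone H82 was slightly higher, at 38.8% against 36.0%. The widest H82-only region of the whole family, 1510 bp, was in intron 2 of BCL2L1 (chr20:31687884-31689393), and the widest H146-only region was 1448 bp, 69.8 kb from the TSS on its 3′ side (chr20:31653420-31654867).

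BCL2L2, which encodes BCL-w, had the largest difference of the 10 genes. Its window (gene at chr14:23298790-23311751, plus strand) was covered to 97.4% in H82 and to 9.30% in H146, which is 10.5 times, or 3.39 on the log2 scale. The H82 value came almost wholly from a region of 105870 bp at chr14:23230350-23336219, the fifth by width in the H82 atlas (rank 5), and from the start of a neighbouring region of 73496 bp. The first of these regions contains the TSSs of 5 genes: BCL2L2, the readthrough gene BCL2L2-PABPN1, HOMEZ, PABPN1 and PPP1R3E. Within the same interval H146 had 7 separate regions that covered 7.71% of it. Both regions belonged to a run of H82 regions of at least 10 kb with gaps of at most 10 kb, which extended over 243 kb and was covered to 97.3% in H82 and 7.28% in H146. In H146 the gene body had 2 regions, 2399 bp near the TSSs of HOMEZ and PPP1R3E and 1386 bp at the MANE Select start. No region of H146 in the BCL2L2 window was without overlap in H82. As the authors joined regions up to 500 bp apart, the H82 region says that no gap wider than that was left over 105870 bp in the pooled libraries, and not that each base was equally open. With regions at the promoters of other genes left out, which removes the wide H82 regions altogether, the difference in covered share changed from 88.1 to -1.55 percentage points.

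MCL1, which encodes a short-lived anti-apoptotic protein, had a covered share of 26.9% in H82 and 18.5% in H146 (gene at chr1:150560895-150579738, minus strand), with 22 and 20 regions. The excess lay outside the gene body. Over the gene body the shares were 30.1% and 30.5%, while at the TSS of the neighbouring gene ADAMTSL4 H82 had a region of 7133 bp that overlapped 3 separate H146 regions of 1183, 2335 and 389 bp. The TSS regions, of 1972 bp (H82) and 2420 bp (H146), were offset from each other: the H82 region reached further upstream (offset -853 against -534) and the H146 region further into the gene (1885 against 1118). In all, 8 H82-only and 3 H146-only regions were present, none over 734 bp in H82 or 427 bp in H146.

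The effectors differed little between the lines. BAX (chr19:48954815-48961798, plus strand) had 17 regions in each line, of which 14 were shared in each, and covered shares of 16.6% and 16.9%. The widest region of its window, at the TSS of the ferritin gene FTL, had 6760 bp (H82) and 6722 bp (H146). The BAX TSS region began at the same base in both lines, 611 bp before the TSS, and was 1180 bp long in H82 and 1470 bp in H146. BAK1 (chr6:33572547-33580293, minus strand) had 21 regions in H82 and 15 in H146, and 14 in each were shared. Its covered share was 15.9% and 13.9%, and over the gene body it was 21.0% in both. Of its 7 H82-only regions 6 were on the 3′ side of the gene, the widest at 849 bp, and H146 had 1 line-only region of 259 bp. The BAK1 TSS regions were 1321 bp and 1264 bp and ended at the same base inside the gene.

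Among the BH3-only genes, BCL2L11 and BBC3 had open starts that did not include the end of the gene record. BCL2L11, which encodes BIM, had regions on both sides of its annotated 5′ end (chr2:111119378, plus strand), 1488 and 3716 bp in H82 and 1524 and 3614 bp in H146. The larger region spanned the MANE Select start in both lines. The upstream regions ended at the same base in both lines, at position -948 from the gene record. Its window was covered to 6.93% in H82 and 7.98% in H146, near the medians of all genes, with 11 and 15 regions of which 8 in each were shared. Of the 7 H146-only regions, 3 that were 200 to 365 bp wide lay near each other in intron 3, between 36178 and 38759 bp from the TSS, where H82 had none.

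BBC3, which encodes PUMA and is a target of p53 (gene at chr19:47220822-47232766, minus strand), had a region of 6457 bp in H82 and 6258 bp in H146 that started 811 bp and 909 bp into the gene record and covered the MANE Select start. The window was covered to 23.3% and 20.4%, by 16 and 14 regions, and 11 in each were shared. A H146-only region of 903 bp lay over exon 4 and had no counterpart in H82, while H82 had 5 narrow line-only regions of 200 to 856 bp.

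PMAIP1, which encodes NOXA and lies on the same chromosome as BCL2, also had more regions in H146. Its window (gene at chr18:59899996-59904305, plus strand) held 18 regions in H82 and 30 in H146, 1.67 times as many in H146, and the covered share was 15.1% and 20.8%. The same number of regions was shared in each line, 17, and the excess in H146 was made of 13 line-only regions, 7 upstream and 6 downstream, with a median of 346 bp and a maximum of 698 bp. Only 1 of the H82 regions was without an H146 counterpart. The TSS region was 2547 bp in H82 and 3257 bp in H146, and the H146 region extended further on both sides (offsets -1845 and 1411, against -1300 and 1246). The upstream bases, within the regions of both lines, are shown beside those of BID, which lie mostly outside the BID regions. PMAIP1 had 4 GC boxes (capitals) and a GC content of 72.8%, and BID had 0 and 47.2% at the end of its gene record. Before the MANE Select start of BID, which lies inside the regions of both lines, the values were like those of PMAIP1, with 4 GC boxes and 72.0%.
PMAIP1, chr18:59899746-59899995, plus strand: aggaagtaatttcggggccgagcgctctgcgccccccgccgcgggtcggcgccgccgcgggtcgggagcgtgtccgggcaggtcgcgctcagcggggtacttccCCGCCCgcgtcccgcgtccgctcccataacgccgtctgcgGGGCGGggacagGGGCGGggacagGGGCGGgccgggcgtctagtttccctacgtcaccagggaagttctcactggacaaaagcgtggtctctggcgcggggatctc
BID, chr22:17774771-17775020, minus strand: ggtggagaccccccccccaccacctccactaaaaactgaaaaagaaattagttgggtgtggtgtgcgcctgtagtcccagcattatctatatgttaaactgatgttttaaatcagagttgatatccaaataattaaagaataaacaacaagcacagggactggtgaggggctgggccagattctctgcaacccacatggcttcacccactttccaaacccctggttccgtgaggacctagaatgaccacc

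BID, a BH3-only protein that caspase-8 cleaves and that links death receptors to mitochondria, had few regions in H146 and a number near the median of all genes in H82. Its window (gene at chr22:17734138-17774770, minus strand) held 14 regions in H82 and 3 in H146, 4.67 times as many in H82, and was covered to 4.89% and 1.48%, 3.30 times more in H82. The 3 H146 regions, at the TSS, in intron 3 and about 12 kb upstream, were all overlapped in H82. The TSS regions were of like size, 1143 bp and 1032 bp, and started close to the end of the gene record, so that of the 250 bases printed above 43 were inside the H82 region and 3 inside the H146 region. The difference was made by 11 H82-only regions, 7 upstream, 3 downstream and 1 in intron 1, with a median of 286 bp. Of the upstream regions, 6 lay between positions -14313 and -3574 from the TSS. The widest of them, 1097 bp at chr22:17784857-17785953, is shown by its central 300 bases because it was the largest site at BID that H146 lacked, with its single E-box CAGCTG in capitals.
BID upstream, chr22:17785255-17785554, minus strand: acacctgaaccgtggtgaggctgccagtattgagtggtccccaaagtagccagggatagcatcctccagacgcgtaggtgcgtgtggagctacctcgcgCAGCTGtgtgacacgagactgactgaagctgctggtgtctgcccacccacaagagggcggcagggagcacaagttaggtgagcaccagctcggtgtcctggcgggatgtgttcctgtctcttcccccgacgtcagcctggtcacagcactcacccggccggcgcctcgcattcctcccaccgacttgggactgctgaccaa

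**Figure D4:**
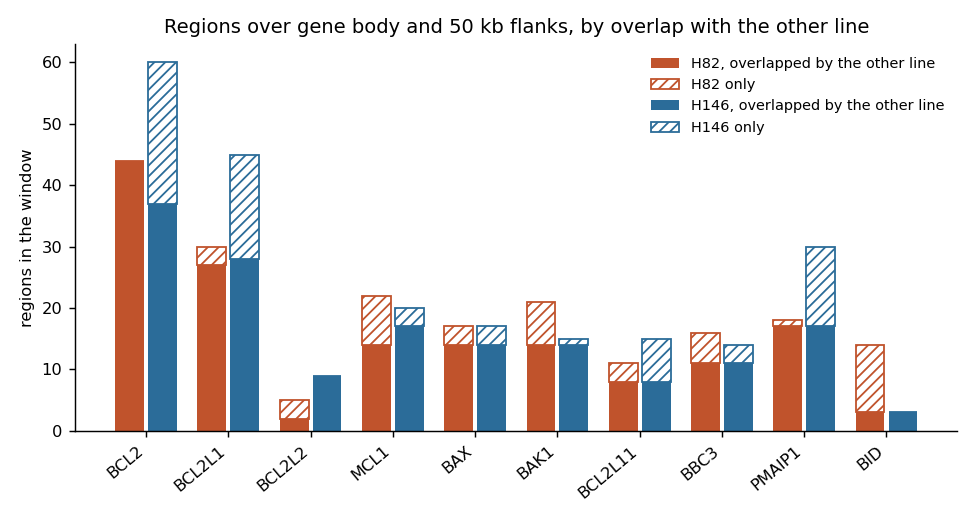
Number of regions in each window, H82 on the left and H146 on the right of each pair, divided into regions overlapped by the other line (solid) and regions of 1 line only (hatched). H146-only regions were most numerous at BCL2 (23), BCL2L1 (17) and PMAIP1 (13), and H82-only regions at BID (11).

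The differences were set against the DNA around each window, out to 1 Mb, a comparison chosen after the values had been seen. On the log2 scale of H82 over H146, positive where H82 was higher, the covered share of the surroundings was -0.61 at BCL2 and -0.49 at PMAIP1, beside -0.54 and -0.46 in their windows. Chromosome 18, which holds both genes, had a value of -0.46 as a whole, and 88.8% of its H82 regions overlapped H146, against 59.3% genome-wide. The surroundings of BID had a value of 1.30, beside 1.72 in the window and 0.34 for chromosome 22. At BCL2L2 the values were 3.39 in the window, 1.40 around it and 0.84 for chromosome 14. For BCL2L1, MCL1, BAX, BAK1, BCL2L11 and BBC3 the window and surroundings differed by between 0.01 and 0.31 in size, and BCL2L11 had 0.10 around and -0.20 within its window. The median absolute difference between window and surroundings was 0.10 for the 10 genes and 0.26 over 19626 genes. The directions seen at BCL2, PMAIP1 and BID were also those of their neighbourhoods, and BCL2L2 was the gene whose window stood furthest from its surroundings, further than 98.7% of all genes.

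**Figure D5:**
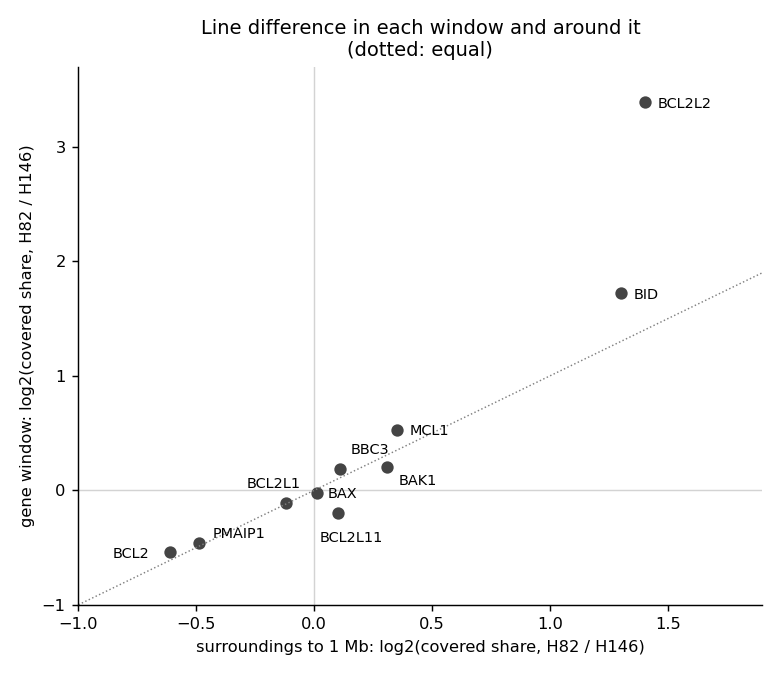
Log2 ratio of covered share, H82 over H146, in the window of each gene (vertical) against the same ratio in the DNA around it out to 1 Mb (horizontal), with a dotted line where they are equal. BCL2L2 lies 1.99 above the line, BID 0.43 above it, and the other genes within 0.31 of it.

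Sequence words were counted on both strands in the regions of the family and, for the background, in all regions of the same class. In the 44 H82-only regions, 18.6 kb in all, CAGATG occurred 0.590 times per kb, against 1.24 per kb in all H82-only regions, and CAGCTG 0.697 times against 0.809. In the 70 H146-only regions, 28.3 kb in all, the values were 0.919 and 0.884 per kb, against 0.895 and 0.878. The word TAATCC, read by OTX2, was found 1.98 times per kb in the H82-only regions of the family (37 matches in 23 regions), against 1.26 in all H82-only regions, and 0.672 times in the H146-only regions, against 0.448. Part of these matches was followed directly by CAGC, the letters that continue the word in Alu repeats: 15 of 37 in the H82-only and 15 of 19 in the H146-only regions, and 20.9% and 25.9% in all regions of these classes. Without such matches the densities were 1.18 and 0.141 per kb, against 0.998 and 0.332. The AP-1 word TGANTCA was found 0.376 times per kb in the H82-only and 0.212 times in the H146-only regions, from 7 and 6 matches, against 0.316 and 0.435. TGTTTAC was not found in the 18.6 kb of H82-only sequence, where all such regions held 0.130 per kb, and 0.212 times per kb (6 matches) in the H146-only regions, against 0.315 in all such regions.

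Because BBC3, PMAIP1 and BAX are classical p53 targets, all regions were searched for the p53 site, a pair of half-sites with a spacer of 0 or 1 base. The full consensus was found 0 times in the regions of the family, where all regions held between 0.000424 and 0.00126 matches per kb. With up to 2 of the flanking letters off and both cores intact, a setting added after the first search, 3 places were found, and they are shown with the cores in capitals on the strand of the gene. The PMAIP1 match lies in the TSS region of both lines, centred at position -438 from the TSS, and has 2 letters off. The BCL2L1 match is in a 956-bp H82 region of intron 2, and the BCL2L11 match is in a 563-bp H146-only region downstream of the gene, each with 1 letter off. Pairs of intact cores with more than 2 flanking letters off are left out by this setting. Such a pair lies in the 250 bases before the MANE Select start of BBC3, inside the regions of both lines. The lack of a match at a gene is therefore not the lack of a p53 site. All regions held 0.0107 such matches per kb in H82 and 0.0120 in H146, and the regions of the family 0.00506 and 0.00845, from 2 matches in each line.
PMAIP1, chr18:59899549-59899568: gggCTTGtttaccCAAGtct
BCL2L1, chr20:31678771-31678790: ggaCTTGtctggaCTAGttg
BCL2L11, chr2:111217585-111217605: gggCAAGtctccagCTTGtcc
A match of letters does not show binding, and these lists hold no measure of it.

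Genes acting around the family were compared by the presence of a region within 1 kb of the TSS and by the covered share within 10 kb of it. All 12 caspase and apoptosome genes were open at the TSS in H82 and in H146, and of these only HTRA2, a mitochondrial protease, passed 1.5 times, with 30.9% in H82 and 19.6% in H146. Of 11 other BCL2 family genes, 9 were open at the TSS in both lines, the NF-kB target BCL2A1 in H82 only, and BCL2L14 in neither. BOK, an effector-like member, and the mitophagy receptor BNIP3L were higher in H82, by 1.70 and 2.01 times, and the related BNIP3 was higher in H146, by 1.80 times. Of 9 death receptor genes, 6 were open there in both, FAS had it in H146 only and FASLG and CASP10 in neither. CFLAR, the inhibitor of caspase-8, was 1.57 times higher in H82, and TNFRSF10A and FADD were 1.59 and 1.60 times higher in H146. Past the limit were thus 2 of the 10 family members (BCL2L2 at 4.80 and BID at 2.41 times), 3 of 11, 1 of 12 and 1 of 9 genes of these lists in H82, where 23.4% of all genes were. In H146 these numbers were 0, 2, 0 and 3, where 8.20% of all genes passed. These counts include BCL2A1 and FAS, with no covered base in the other line, and BCL2L14, with none in H82.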

How the data were processed

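ATAC-seq libraries of H82 (6) and H146 (7) had been trimmed with Trim Galore 0.4.4 and aligned to hg38 with Bowtie2 2.3.4, versions that the submitters' processing notes also give. The authors dropped duplicate reads with Picard, called regions per library with MACS2, removed blacklisted regions and merged regions of all libraries of a line within 500 bp. The deposited values are the start (counted from 0) and end of each merged region, and are printed 1-based. Any correction of read ends for the Tn5 cut is not given in the sources used here. By the study's methods, the H146 libraries were sequenced in separate batches. All treated H146 libraries shared a batch with a control, and the remaining controls were in another. The labels do not say which control belongs to which. There were 0 columns of per-sample values left aside.

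Regions were intersected with GENCODE release 44 on chromosomes 1 to 22, X and Y with numpy 2.4.6 and checked with bedtools 2.31.1 and on simulated intervals. For each symbol 1 gene record was used. Sequences were read from hg38 with pysam 0.24.0, since the RefSeq promoter table lacked some members. Upstream stretches that overlap an annotated exon of any gene, that of BCL2L2 among them, are not printed, and some sequences and marker genes are not reported here. All members were named, and genes of the other lists only where the TSS region was missing in a line or the covered share within 10 kb differed by 1.5 times, with the marker genes of cell types named apart from this rule. Of line-only regions, the widest per gene were candidates for printing. Likeness to other genes was not computed, as each gene had 2 values. The members and lists were chosen with earlier results of these data known. The comparison with surroundings, the runs of wide regions, the letters after TAATCC, the looser p53 match, the GC boxes before MANE Select starts and the shares of all genes set beside these were added after the data were seen.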

Additional observations from a re-analysis of the deposited data

How the results depend on the processing

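No test stands behind any value, since each line had 1 pooled atlas, and no paired analysis was possible because the atlases carry no replicate numbers. The number of regions followed the span examined: with flanks of 10 kb it was 90 in H82 and 114 in H146, with flanks of 100 kb 301 and 358, over gene bodies alone 62 and 77, and with regions of at least 500 bp 116 and 126. H146 had more regions in each total. It also had more on the whole of chromosome 18, which holds BCL2 and PMAIP1 (9658 against 7620 in H82). The share of H82 regions that were shared was 85.6% with 10-kb flanks, 90.3% over gene bodies, and 58.1% where an overlap of at least 50% of both regions was required. The share for H146 was 77.8% with regions of at least 500 bp and 50.4% with the stricter overlap. H82 had the higher covered share for 3 genes rather than 5 over gene bodies alone, and for 3 relative to the mean of the chromosome. The difference in covered share, H82 minus H146, reversed at BCL2L2, from 88.1 to -1.55 points, when regions at promoters of other genes were left out, because the wide H82 regions are then removed. Of 60 alternatives over the 10 genes, 46 were counted as keeping the direction and the side of the 1.5-fold limit. They include BAK1 over the gene body, where the difference was 0 and so had no direction. The count says nothing of the size in points (the MCL1 difference of 8.33 ran from -0.451 to 12.2). Another 13 changed the side or the direction. Among those, small differences changed sign at BAX (2.93 points with 10-kb flanks), BAK1 (-0.364 with 10-kb flanks), BCL2L1 (2.87 over the gene body), MCL1 (-0.451 over the gene body) and BBC3 (-5.89 over the gene body). The sign also changed at MCL1 and BBC3 when shares were divided by that of the chromosome, and on this scale the lines differed by -0.00203 at PMAIP1. At BCL2, BCL2L11, PMAIP1 and BID none of the 6 alternatives changed the direction. A region absent from a list may have been missed at the depth of that line, which is unknown.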
